A study of Homo sapiens with 9 samples.

Results

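SGPL1 and ITPK1 are 2 of the 14812 genes measured here, and both had less transcript in melanoma cells given a miR-199a-3p mimic than in cells given a control microRNA. They were chosen for that pattern: each was lower at both doses when every gene was represented by its brightest row and all arrays were shifted to one median. Their differences from control are therefore given as a description, without a test. The cells were WM266-4, a human line established from a melanoma metastasis and grown here in a GFP-carrying form. They were transfected by lipofection with the mimic at 0.5 nM (3 arrays), with the mimic at 0.25 nM (3 arrays), or with the control microRNA at 0.5 nM (3 arrays), and total RNA was collected 48 h later from biological triplicates. Every group thus received lipid and a small RNA. The control had no arm at 0.25 nM, so at that dose the mimic and the amount of small RNA changed together. Of the 10 melanoma markers listed, 9 were measured, and all 9 lay above the median level of 6.25 log2 units, with the lowest, NGFR, at 6.43 and TYR at 12.76; of the fibroblast, epithelial and immune markers, the 8 that were measured lay between 2.66 and 6.02.

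SGPL1 encodes sphingosine-1-phosphate lyase, an enzyme of the endoplasmic reticulum that cleaves sphingosine 1-phosphate irreversibly into a fatty aldehyde and phosphoethanolamine. It is the exit of the sphingolipid pathway: ceramide is turned into sphingosine by ceramidases, sphingosine is phosphorylated by the kinases SPHK1 and SPHK2, and the product is exported to act on the S1PR receptors, dephosphorylated back to sphingosine, or destroyed by the lyase. ITPK1 encodes inositol-tetrakisphosphate 1-kinase, which phosphorylates soluble inositol phosphates on the way to the fully phosphorylated inositol ring and the inositol pyrophosphates. The genes thus belong to separate pathways, one of lipids and one of water-soluble inositol phosphates.

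A microRNA recognises transcripts mainly through its seed, bases 2 to 8 of the mature strand. The mimic's mature sequence is shown here from RefSeq (GRCh38.p14) with the seed in capitals, beside the other human mature microRNA names that carry the same 7 bases and the opposite arm of the same hairpin, which does not.
miR-199a-3p: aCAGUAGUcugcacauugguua
miR-199b-3p: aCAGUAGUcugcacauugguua
miR-3129-5p: gCAGUAGUguagagauugguuu
miR-199a-5p: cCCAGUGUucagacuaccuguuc
Of 2370 mature names in the table, 3 carried this seed. The strand miR-199a-3p lies in both MIR199A1 (chr19:10817429-10817450, minus strand) and MIR199A2 (chr1:172144554-172144575, minus strand), and miR-199b-3p is the same 22 bases from MIR199B (chr9:128244745-128244766, minus strand). The transcripts of SGPL1 and ITPK1 were not searched for matches to this seed, since no transcript sequence was used here.

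SGPL1 was at less than 50% of its control intensity at both doses after the shift of arrays. Without the shift it lay at -0.99 at 0.5 nM and -0.88 at 0.25 nM, short of a 50% fall. On the arrays of the 0.5 nM mimic its shifted log2 level was 6.81, 6.83 and 6.69. On the arrays of the 0.25 nM mimic it was 6.82, 6.81 and 6.81, and on the control arrays 7.80, 7.88 and 7.88. The 6 mimic arrays lay together, and all were below all 3 control arrays. The group means were 6.78 ± 0.074 at 0.5 nM, 6.81 ± 0.0073 at 0.25 nM and 7.86 ± 0.048 in control (log2, SD, n = 3 each). The difference from control was -1.08 at 0.5 nM, an intensity 52.6% lower, and -1.04 at 0.25 nM, an intensity 51.4% lower. These are differences of bulk RNA, in which fewer cells carrying the transcript and less transcript per cell cannot be told apart.

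ITPK1 was also lower than control at both doses, and its level differed by dose. Its shifted log2 level was 9.19, 9.18 and 9.18 on the arrays of the 0.5 nM mimic. It was 8.76, 8.74 and 8.74 on those of the 0.25 nM mimic, and 9.83, 9.86 and 9.86 on the control arrays. No group overlapped another, with the lower dose at the bottom and the control at the top. The means were 9.18 ± 0.0063 at 0.5 nM, 8.75 ± 0.0097 at 0.25 nM and 9.85 ± 0.016 in control (log2, SD, n = 3 each). The difference from control was -0.67 at 0.5 nM, an intensity 37.1% lower, and -1.10 at 0.25 nM, an intensity 53.3% lower.

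**Figure D1:**
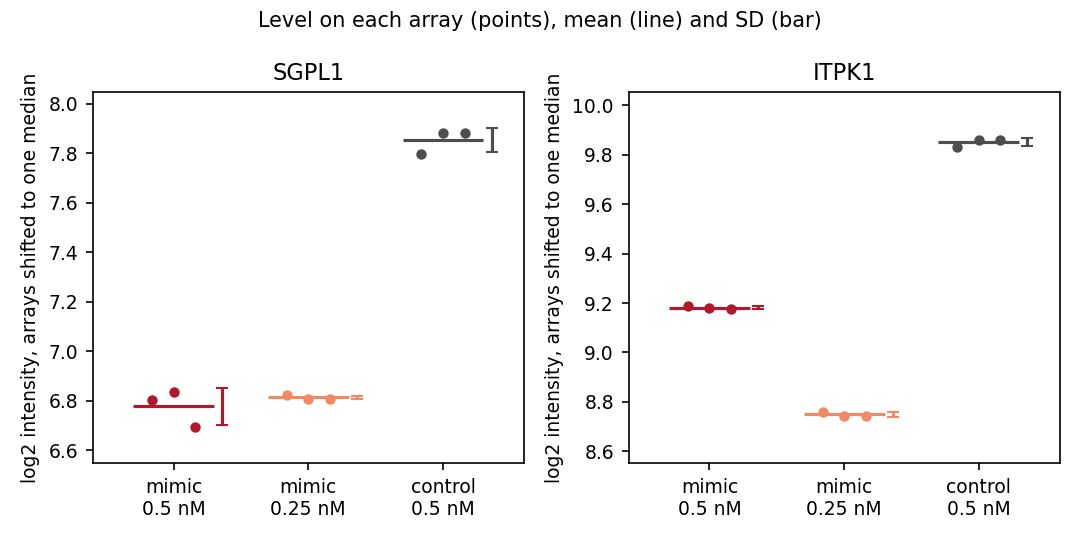
Log2 intensity of SGPL1 (left) and ITPK1 (right) on each of the 9 arrays after arrays were shifted to one median, by transfection group on the x axis, with points for arrays, lines for means and bars for the SD (n = 3). All 6 mimic arrays lie below the control arrays for both genes. After the shift the doses lie apart only for ITPK1, with 0.25 nM the lower. As deposited, the SGPL1 arrays at 0.5 nM also lay wholly below those at 0.25 nM.

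The spread within groups understates the error of these differences. As deposited, the ITPK1 value was identical on all 3 arrays of the 0.5 nM mimic (9.19) and on all 3 of the 0.25 nM mimic (8.82), and 2 of its 3 control values were equal (9.78, against 9.75 on the remaining array). The small SDs of ITPK1 at both doses come from the array shift alone. SGPL1 tied on 2 of the 3 arrays of the 0.25 nM mimic (6.89) and had 3 different values in each of the other groups. Such ties were common: 23.8% of genes tied on all arrays of both mimic groups, while no value was equal between arrays of different groups. The deposited table thus has the form of groups that were normalized and summarised apart, a step that the labels do not record, and limma p-values that rest on the spread within groups are too small. Non-overlap of groups is also common in this table. All 6 mimic arrays lay below all control arrays for 22.5% of genes and above them for 22.6%, so the separation of SGPL1 and ITPK1 from control is read here from its size and not from the absence of overlap.

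By size, both genes stood at the low edge of the table. At 0.5 nM, 37 genes (0.25%) were as low against control as SGPL1 or lower, and 245 (1.65%) as low as ITPK1 or lower, each count including the gene itself. At 0.25 nM these were 51 genes (0.344%) for SGPL1 and 38 (0.257%) for ITPK1. The SD of the difference from control over all genes was 0.308 at 0.5 nM and 0.314 at 0.25 nM. Each gene was also set beside genes whose mean level lay within 0.5 log2 units of its own. Among 2241 genes of the level of SGPL1, 2 had a larger difference from control in either direction at 0.5 nM, and 1 had at 0.25 nM. Among 1247 genes of the level of ITPK1, 4 had a larger one at 0.5 nM and 2 at 0.25 nM. These counts use the contrasts by which the genes were picked and describe where they lie.

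**Figure D2:**
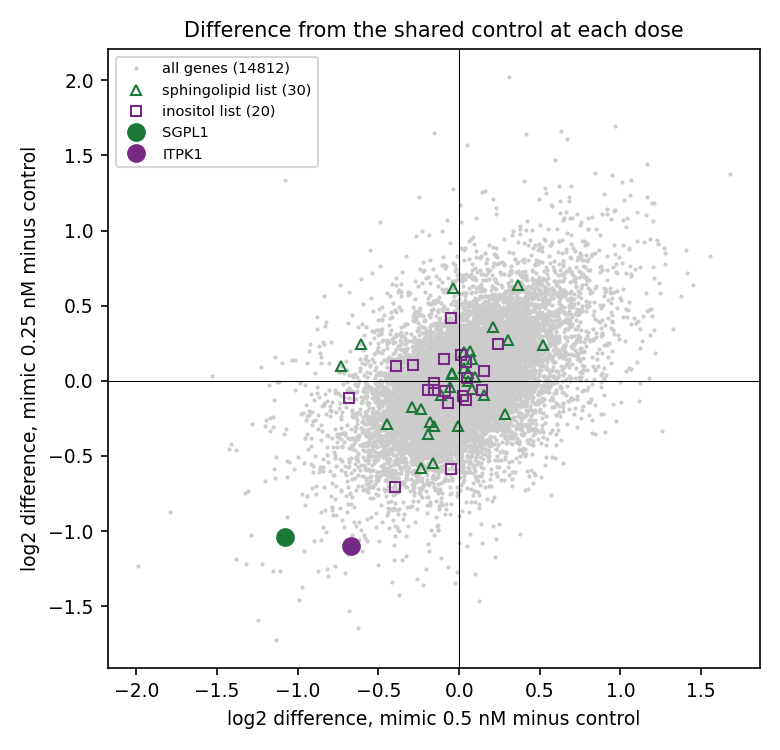
Log2 difference from the shared control microRNA at 0.5 nM (x axis) and at 0.25 nM (y axis) for 14812 genes (grey), with the sphingolipid list (30 genes, triangles), the inositol list (20 genes, squares), SGPL1 and ITPK1. Both axes subtract the same 3 control arrays, and so share their error. SGPL1 lies at -1.08 and -1.04 and ITPK1 at -0.67 and -1.10, away from the other genes of their lists. Both were chosen for low values on these axes.

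The genes were not chosen on the difference between the doses itself, and that difference was tested. It uses the same mimic arrays as the contrasts that chose them, so it is not independent of the choice. In limma over all 9 arrays and 14812 genes, ITPK1 was higher at 0.5 nM than at 0.25 nM by 0.43 log2 units (95% interval 0.405 to 0.457, limma adjusted p = 3.39e-08), or 1.35-fold, with all 3 arrays of 0.5 nM above all 3 of 0.25 nM. SGPL1 did not pass, at -0.04 (95% interval -0.129 to 0.0573, limma adjusted p = 0.463). Without the shift of arrays SGPL1 lay at -0.10 (limma adjusted p = 0.059). The intervals cover the spread within groups only. By the same test 62.2% of all genes passed between the doses, 35.0% higher and 27.2% lower at 0.5 nM, and the arrays of 0.5 nM lay wholly above those of 0.25 nM for 40.6% of genes. A call for ITPK1 is therefore near the background of this test. Its size was less common: 13.7% of all genes, but 15 of the 1247 genes of its level (1.20%), differed more between the doses. For SGPL1, 88.2% of all genes and 86.4% of the 2241 genes of its level differed more between the doses. Dose and any separate normalization of the groups cannot be told apart here.

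**Figure D3:**
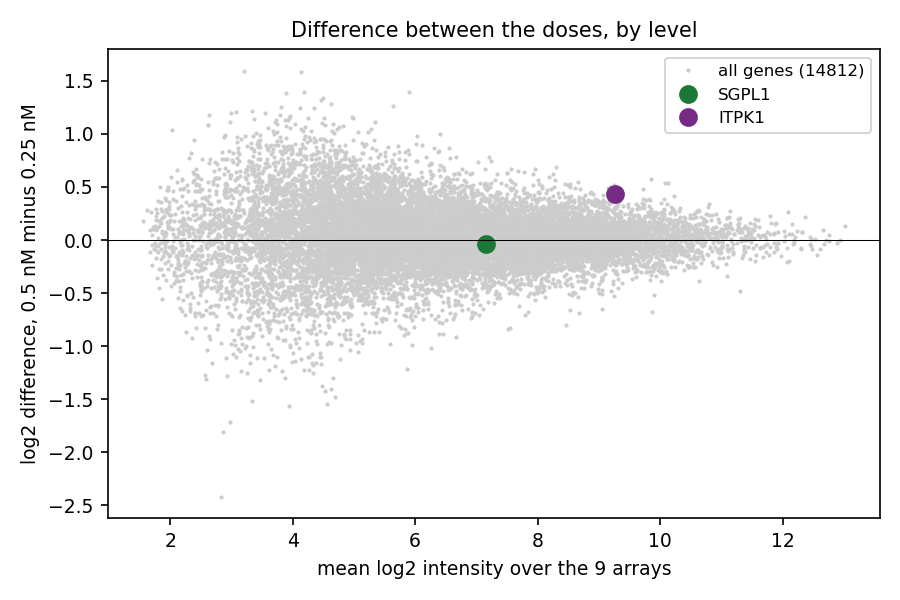
Log2 difference of 0.5 nM minus 0.25 nM (y axis) against the mean log2 intensity over 9 arrays (x axis) for 14812 genes (grey), SGPL1 and ITPK1. ITPK1, at 0.43, lies near the upper edge of genes of its level, and SGPL1, at -0.04, lies in the middle of the cloud.

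After the shift, the values side by side show SGPL1 level with dose and ITPK1 lower at the smaller dose. As deposited, SGPL1 lay at 6.81, 6.84 and 6.71 at 0.5 nM, all below the 6.89 of each 0.25 nM array. The difference between the genes was not tested. Leaving out any 1 array moved the difference of SGPL1 from control within -1.11 to -1.04 at 0.5 nM and within -1.07 to -1.02 at 0.25 nM. For ITPK1 the ranges were -0.68 to -0.66 and -1.11 to -1.08. Every one of these values stayed below control.

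The nearest profiles were sought among genes above the median level, by the root mean square difference of gene-centred log2 values over the arrays. ITPK1 had close matches. SLC49A4, a transporter of the solute carrier class, lay at a distance of 0.0547 log2 units (r = 0.994 over 9 arrays), with differences from control of -0.66 at 0.5 nM and -1.03 at 0.25 nM. CISD2, an iron-sulphur protein of the endoplasmic reticulum and mitochondrial outer membrane, lay at 0.074 over 8 arrays, GATD1 at 0.08 over 8 arrays, CD2AP, an adaptor linking membrane proteins to actin, at 0.083, and DCP2, the enzyme that removes the mRNA cap, at 0.0854. All 5 were lower at 0.25 nM than at 0.5 nM, as ITPK1 was, which follows from choosing them by nearness to its profile.

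SGPL1 had no match as close. Its nearest gene was PON2, a paraoxonase of intracellular membranes, at a distance of 0.172 (r = 0.976 over 9 arrays), with differences from control of -0.67 at 0.5 nM and -0.82 at 0.25 nM. RNF14, a RING-type ubiquitin ligase, followed at 0.188, SLC49A4 at 0.193, DEPDC1B, a regulator of small GTPases and cell adhesion, at 0.196 and HAGHL at 0.197. Among 7405 genes compared, ITPK1 was eighth nearest to SGPL1 at 0.211 (r = 0.907), and SGPL1 was at position 39 from ITPK1. The points of these correlations are arrays that share 3 group means, so they are given as a description.

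**Figure D4:**
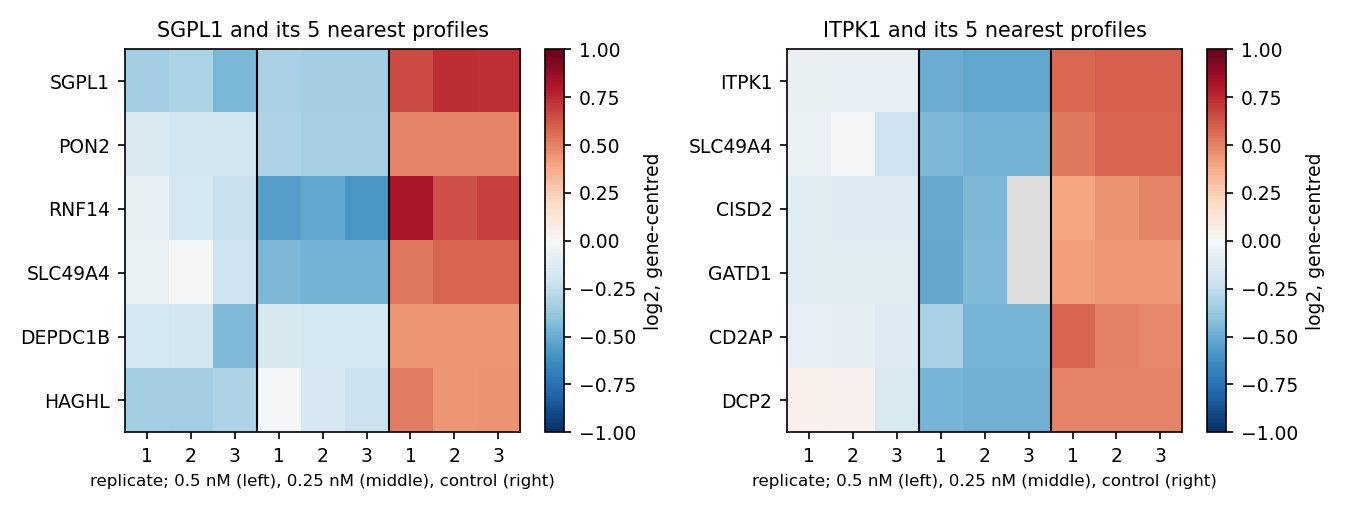
Gene-centred log2 levels on the 9 arrays (columns: replicates 1 to 3 of 0.5 nM, 0.25 nM and control) for SGPL1 and its 5 nearest genes (left) and ITPK1 and its 5 nearest (right), with blue for below and red for above the gene's mean and grey for values left out. The ITPK1 block is lowest at 0.25 nM in every row, which follows from choosing its rows by nearness to ITPK1. In the SGPL1 block PON2, RNF14 and SLC49A4 are lower at 0.25 nM and DEPDC1B and HAGHL at 0.5 nM. For DEPDC1B this rests mainly on replicate 3 of 0.5 nM, at -0.44 against -0.18 and -0.19 in replicates 1 and 2.

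SGPL1 lay lower than the other genes of its pathway that were measured. It was chosen for being low on these same contrasts, so its place below them is only a description. Of 50 listed sphingolipid genes besides SGPL1, 30 were measured under a gene name and 21 of these lay above the median level. At 0.5 nM 8 were higher and 7 lower by limma (26.7% and 23.3% of the list, against 33.2% and 30.1% of all genes, or 63.3% in either direction). At 0.25 nM 9 were higher and 9 lower (against 30.3% and 33.9% of all genes, or 64.2% in either direction), a split that was 15 and 4 without the shift of arrays. Their median difference from control was -0.02 at 0.5 nM and 0.01 at 0.25 nM, beside 0.01 and -0.02 over all genes. Without the shift every difference from control was higher, by a median of 0.09 log2 units at 0.5 nM and 0.16 at 0.25 nM, so calls near those sizes depend on it. The lowest member of the list lay at -0.73 at 0.5 nM (GALC) and at -0.58 at 0.25 nM (ORMDL3), against -1.08 and -1.04 for SGPL1. When each group counted as 1 unit, in limma with an intensity trend on the 3 group means, 0 of the 30 passed for both doses against control (2 at an unadjusted p under 0.05, smallest limma adjusted p = 0.526), where 0.128% of all genes did (0.0270% higher and 0.101% lower).

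Of 6 measured genes that make or remove the same lipid as SGPL1, 1 rose at 0.5 nM and 2 at 0.25 nM. In this set 0 fell at either dose. At 0.5 nM and 0.25 nM, 33.2% and 30.3% of all genes were higher and 30.1% and 33.9% lower. Here and below, rose and fell are calls by limma, whose p-values rest on the spread within groups and are too small. SPHK1, the kinase that makes sphingosine 1-phosphate, averaged 8.45 ± 0.23 at 0.5 nM, 8.58 ± 0.21 at 0.25 nM and 8.38 ± 0.42 in control (log2, SD, n = 3 each), and did not pass at either dose (limma adjusted p = 0.814 and 0.480). SGPP1, a phosphatase that returns it to sphingosine, lay at 0.08 and -0.06 from control (limma adjusted p = 0.240 and 0.386), and passed as higher at 0.5 nM without the shift (0.17, limma adjusted p = 0.043). Its homologue SGPP2, whose mean level of 4.63 lay below the median of all genes, passed as higher at both doses, by 0.30 at 0.5 nM and 0.27 at 0.25 nM (limma adjusted p = 0.00113 and 0.00207). PLPP1, a broad lipid phosphate phosphatase, rose by 0.62 at 0.25 nM (limma adjusted p = 0.00337) and lay at -0.03 at 0.5 nM. SPHK2, the second kinase, and ALDH3A2, which oxidises the aldehyde that the lyase releases, were not analysed here.

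Of 5 measured genes that export or sense the lipid, 3 rose and 1 fell at 0.5 nM, and 2 rose and 2 fell at 0.25 nM. Of all genes, 33.2% were higher and 30.1% lower at 0.5 nM, and 30.3% and 33.9% at 0.25 nM. SPNS2, the exporter, rose by 0.16 at 0.5 nM. At 0.25 nM it was called lower, at -0.10 (limma adjusted p = 0.00999), but higher without the shift of arrays (0.06, limma adjusted p = 0.0482). Of the receptors, S1PR4, below the median level of all genes, rose by 0.52 and 0.24. S1PR2 lay at -0.01 at 0.5 nM without passing, but was called higher there without the shift (0.08, limma adjusted p = 0.000224). It fell by 0.30 at 0.25 nM (limma adjusted p = 2.41e-06), where 2 of 3 arrays were used. S1PR5 was called higher at both doses, at 0.03 and 0.19, with 2 of 3 arrays used at 0.25 nM. Its call at 0.5 nM was lost with quantile normalization (limma adjusted p = 0.0548). S1PR1, also below the median level, lay at -0.24 and -0.19 (at 0.5 nM limma adjusted p = 0.0465, and 0.190 without the shift). S1PR3 was not analysed here.

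Of 9 measured genes of sphingolipid synthesis, 2 rose and 3 fell at 0.5 nM, and 2 rose and 4 fell at 0.25 nM. Beside them, 33.2% of all genes were higher and 30.1% lower at 0.5 nM, and 30.3% and 33.9% at 0.25 nM. The risers of this set were the ceramide synthases CERS2 and CERS3. CERS2 rose by 0.21 and 0.36 (limma adjusted p = 0.0269 and 0.00231). CERS3 rose by 0.05 at both doses, but with quantile normalization its direction at 0.5 nM turned and its call at 0.25 nM was lost. CERS4 fell by 0.29 and 0.17, with 2 of 3 arrays used at 0.25 nM, where the call was lost without the shift. The 3 ORMDL genes, whose proteins restrain serine palmitoyltransferase at the start of sphingolipid synthesis, lay below control at both doses under each scaling. ORMDL1 lay at -0.45 at 0.5 nM and -0.29 at 0.25 nM (limma adjusted p = 0.00715 and 0.0446), and the call at 0.25 nM was lost without the shift and with quantile normalization. ORMDL2 fell by 0.19 and 0.35 (limma adjusted p = 2.28e-05 and 1.97e-06), with 2 of 3 arrays used at 0.25 nM. ORMDL3 lay at -0.24 and -0.58, and passed at 0.25 nM (limma adjusted p = 0.0141) but not without the shift of arrays (limma adjusted p = 0.0614). None of the 3 passed on the group means, where only 0.128% of all genes did. Of 5 measured ceramidases, 1 rose and 1 fell at 0.5 nM, and 1 rose and 2 fell at 0.25 nM, beside the same shares of all genes. ASAH2, the neutral ceramidase, lay at -0.16 at 0.5 nM and fell by 0.55 at 0.25 nM (limma adjusted p = 0.00127). ACER1 fell by 0.61 at 0.5 nM and rose by 0.24 at 0.25 nM, where 2 of 3 arrays were used. The mean levels of CERS3, ASAH2, ACER1 and ACER2 (4.51, 4.9, 4.31 and 6.07) lay below the median of all genes. ACER2 rose by 0.29 and fell by 0.22 (a fall not called without the shift), while ASAH1, the lysosomal ceramidase, lay at -0.11 and -0.10 and passed at neither dose.

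ITPK1 likewise lay below every measured gene of its own pathway at 0.25 nM, and below all but IP6K3 at 0.5 nM. It too was chosen on these contrasts, so its place is only a description. Of 39 listed inositol phosphate genes besides ITPK1, 20 were measured under a gene name, none of them a phospholipase C or an IP3 receptor. At 0.5 nM 3 were higher and 9 lower by limma (15% and 45% of the list, against 33.2% and 30.1% of all genes), with 5 lower both without the shift and with quantile normalization. At 0.25 nM 8 were higher and 4 lower (40% and 20% of the list, against 30.3% and 33.9% of all genes), with 2 lower without the shift. The median difference from control was -0.06 at 0.5 nM and -0.04 at 0.25 nM, beside 0.01 and -0.02 over all genes. The lowest genes were IP6K3 at -0.69 and NUDT10 at -0.71, both below the median level. On the group means 0 of the 20 passed for both doses against control (0 at an unadjusted p under 0.05, smallest limma adjusted p = 0.874). Only 0.128% of all genes passed there.

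Of the 4 other inositol phosphate kinases measured, 2 rose and 1 fell at 0.5 nM, and 3 rose and 0 fell at 0.25 nM. Among all genes 33.2% were higher and 30.1% lower at 0.5 nM, and 30.3% and 33.9% at 0.25 nM. IPMK is the multikinase that supplies highly phosphorylated inositols by another route. It fell by 0.39 at 0.5 nM and rose by 0.10 at 0.25 nM (limma adjusted p = 1.42e-08 and 2.45e-05). This is the reverse of the dose order of ITPK1. The SDs of IPMK within groups were only 0.0063 at 0.5 nM, 0.0097 at 0.25 nM and 0 in control. On the group means it did not pass for both doses against control (limma adjusted p = 0.967). Of the kinases that act on IP3 itself, ITPKB rose by 0.15 at 0.5 nM and 0.06 at 0.25 nM (limma adjusted p = 1.53e-05 and 0.00214), with the call at 0.25 nM lost under quantile normalization. ITPKA rose by 0.05 and 0.02 (limma adjusted p = 0.00111 and 0.0419). Without the shift these values were 0.24 and 0.22 for ITPKB and 0.14 and 0.18 for ITPKA. ITPKC lay at -0.07 and -0.15 and passed at neither dose. Of 9 measured kinases and phosphatases of inositol pyrophosphates, 0 rose and 5 fell at 0.5 nM, and 2 rose and 4 fell at 0.25 nM. The falls were 55.6% and 44.4% of these genes, against 30.1% and 33.9% of all genes. The rises were 0% and 22.2%, against 33.2% and 30.3%, and these gaps were not tested. They also depended on the scaling. At 0.5 nM without the shift, PPIP5K2 was called higher and NUDT3 turned without a call. With quantile normalization both calls at this dose were lost. At 0.25 nM without the shift, NUDT3 was called higher and IP6K3 turned without a call. IP6K2, which makes inositol pyrophosphates, fell by 0.29 at 0.5 nM and rose by 0.10 at 0.25 nM, and IP6K1 lay at 0.14 and -0.06 without passing. PPIP5K2, of the second class of pyrophosphate kinases, rose by 0.42 at 0.25 nM (limma adjusted p = 1.91e-07). At 0.5 nM it was called lower, at -0.05, but higher without the shift (0.04, limma adjusted p = 0.0361). PPIP5K1 lay at -0.15 and -0.01 and passed at neither dose. Of 4 measured inositol phosphate phosphatases, 1 rose and 1 fell at 0.5 nM, and 3 rose and 0 fell at 0.25 nM, beside the same shares of all genes. IMPA2, an inositol monophosphatase, rose by 0.05 and 0.13. MINPP1 rose by 0.17 at 0.25 nM (limma adjusted p = 0.023) and lay at 0.01 at 0.5 nM, and INPP1 fell by 0.09 at 0.5 nM and rose by 0.14 at 0.25 nM, where 2 of 3 arrays were used. Without the shift INPP1 lay at -0.003 and 0.30. IPPK and INPP5A were not analysed here.

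**Figure D5:**
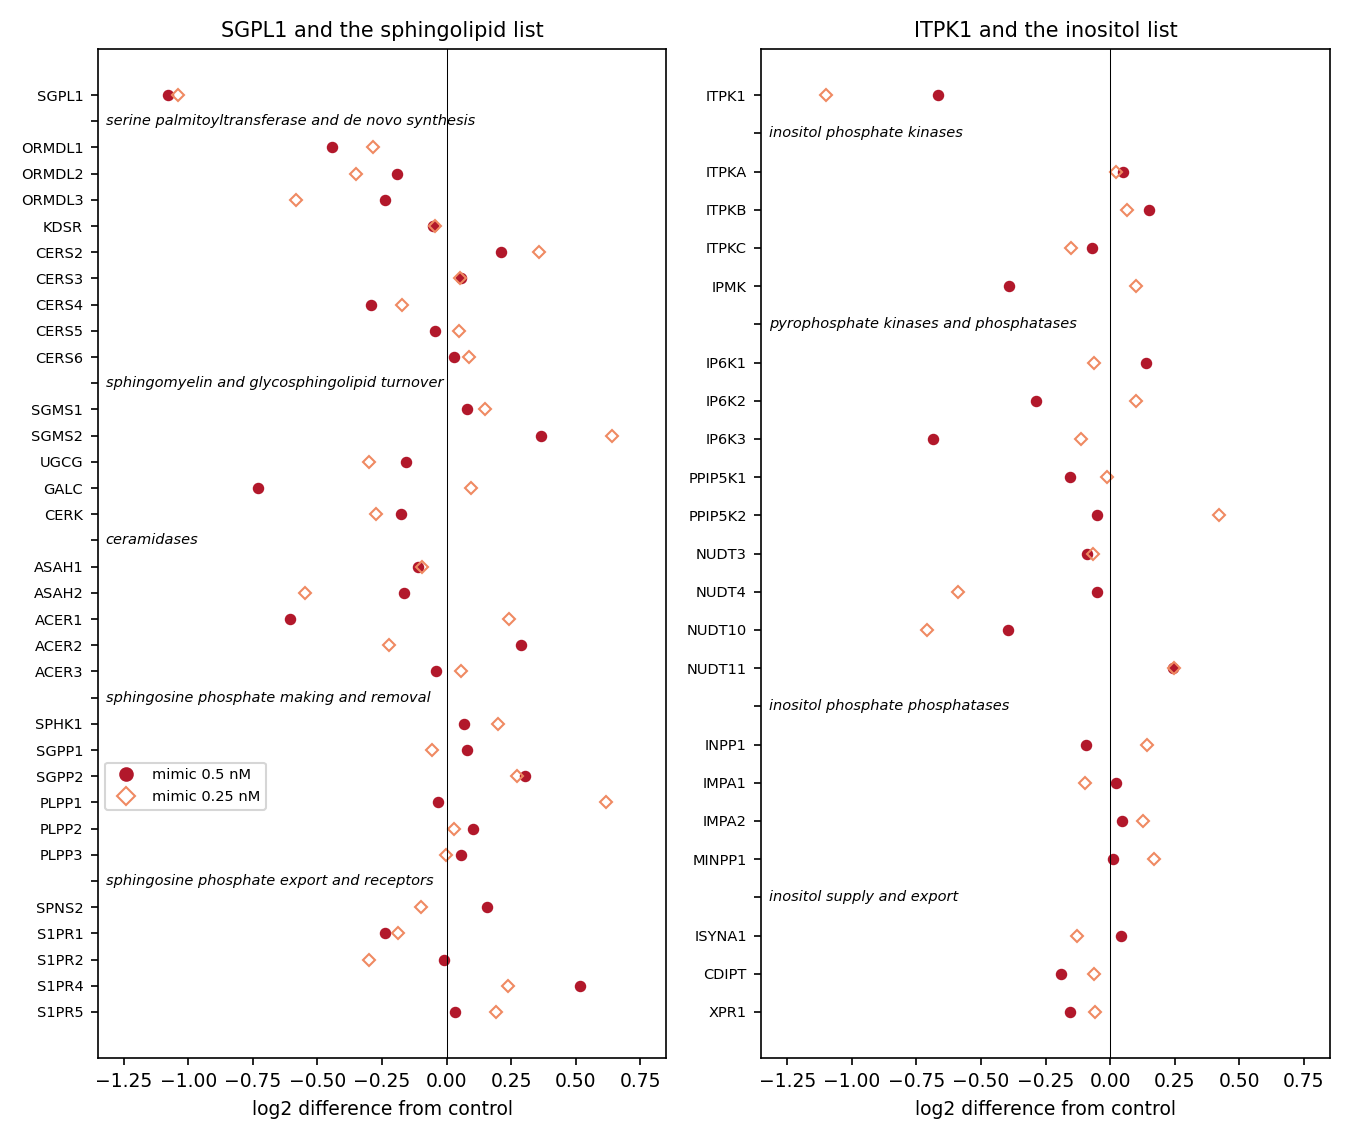
Log2 difference from control at 0.5 nM (filled circles) and 0.25 nM (open diamonds) for SGPL1 with 30 sphingolipid genes (left) and ITPK1 with 20 inositol phosphate genes (right), grouped by role. SGPL1 lies below every gene of its list at both doses, and ITPK1 below every gene of its list at 0.25 nM but just above IP6K3 at 0.5 nM. Both were chosen for low values on these contrasts.

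Because the genes were lower together, their promoters are shown for comparison, as the 250 bases upstream of each gene's start from RefSeq (GRCh38.p14). Capitals mark GGGCGG or its complement CCGCCC, the GC box bound by factors of the Sp and KLF families. The SGPL1 window is chr10:70815698-70815947 on the plus strand and the ITPK1 window chr14:93115926-93116175 on the minus strand.
SGPL1: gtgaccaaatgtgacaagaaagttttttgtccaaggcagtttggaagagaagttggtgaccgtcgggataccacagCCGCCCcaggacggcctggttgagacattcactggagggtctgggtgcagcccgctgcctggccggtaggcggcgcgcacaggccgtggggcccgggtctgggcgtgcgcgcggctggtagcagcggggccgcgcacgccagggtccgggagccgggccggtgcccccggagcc
ITPK1: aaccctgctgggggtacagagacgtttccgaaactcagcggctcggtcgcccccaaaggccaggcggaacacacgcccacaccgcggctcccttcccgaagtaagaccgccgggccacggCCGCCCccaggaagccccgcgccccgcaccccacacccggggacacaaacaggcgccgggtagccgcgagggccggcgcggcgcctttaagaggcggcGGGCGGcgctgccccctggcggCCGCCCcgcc
The SGPL1 window held 1 GC box and the ITPK1 window 3, where 42.6% of 35116 promoter windows held at least 1. Their GC contents were 68.8% and 75.2%, above the 58.0% median of all windows. Neither window held the E-box CACGTG, the AP-1 motif TGACTCA or the M-box core TCATGTG on either strand, letters found in 6.34%, 4.2% and 2.52% of windows. A match is only a run of letters, and no binding was measured here.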

How the data were processed

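WM266-4 cells were profiled on 9 arrays in 3 groups of 3, grouped by sample title. The authors deposited log2 intensities, 1 table of 44629 rows. RMA, oligo and affy are named in the submitters' processing notes; their versions and the build used are not stated there. The third 0.25 nM column lacks any value whose first decimal is 0 (4178 to 4774 such values in each other column). Where replicates 1 and 2 tie with that digit at 0 (2695 rows), 2351 match replicate 3 after removing those zeros. Its values under 10 digits were left out (19.1% of genes, none of SGPL1 or ITPK1). Names came from the platform table (15835 rows with 1 symbol, all matched to current RefSeq genes), the brightest row per symbol was kept (651 genes had several), and arrays were shifted to one median over genes without missing values.

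limma 3.58.1 (R 4.3.3) was fitted with a mean per group and two-sided p-values, adjusted by Benjamini-Hochberg across all 14812 genes (called under 0.05); for both doses against control, limma with a trend was fitted to 3 group means (35.9 prior degrees of freedom). The printed fits have no replicate block. Same-numbered arrays of different groups deviated together (correlations over genes of 0.136 to 0.589), which met the rule for pairing, but replicates 2 and 3 did so across numbers too (0.165 to 0.359) and replicate 1 stood apart from both (-0.465 to -0.203). The block is an alternative. Members, lists, nearest-gene rule and tests were chosen with earlier results of these data known. Named are SGPL1, ITPK1, list genes by role, and the 5 nearest profiles per member. Alternatives covered scaling, rows, filter, trend, block and arrays left out. The number of arrays limits precision.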

Additional observations from a re-analysis of the deposited data

Results flagged for a closer look

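The difference of ITPK1 from the shared control was unequal between the mimic groups, at -0.67 at 0.5 nM and -1.10 at 0.25 nM. The difference of 0.43 log2 units between the doses passed limma (adjusted p = 3.39e-08). All 3 arrays at 0.5 nM lay above all 3 at 0.25 nM. The deposited ITPK1 values were identical within each of these groups, so the test takes its error from the array shift, the control arrays and the moderation across genes, and 62.2% of all genes passed it. Dose and any separate normalization of the groups cannot be told apart.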

How the results depend on the processing

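SGPL1 and ITPK1 lay below control at both doses in every alternative run. The values below come from alternatives, and the cause of each move was not tested. At 0.5 nM SGPL1 lay at -0.99 without the shift and -1.13 with every row tested, and ITPK1 at -0.58, -0.65 (quantile), -0.72 (every row) and -0.68 (replicate 1 of all groups left out, chosen after seeing the data). At 0.25 nM SGPL1 lay at -0.88 without the shift, and ITPK1 at -0.94, -1.06, -1.14 and -1.11 in the same order; leaving out single arrays gave ITPK1 -1.11 to -1.08. Between the doses ITPK1 passed in all 18 alternatives (0.36 to 0.44, limma adjusted p from 7.85e-09 to 5e-06, the highest with the replicate block, at 0.43) and SGPL1 in none (-0.10 to 0.01, adjusted p from 0.059 to 0.871; the sign turned without 0.5 nM replicate 3). The replicate block changed neither call.

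Genes called by limma at 0.5 nM, at 0.25 nM and between doses numbered 9372, 9511 and 9210; with every row tested they were 27931, 28364 and 27402 rows, and above the median level 3787, 3944 and 3645. On the group means 19 genes were called, against 35 with all values as deposited, 0 without the shift, 0 with quantile normalization, 0 without the trend, 39 with the mean of rows, 83 rows with every row tested and 2 without replicate 1 of all groups. Leaving out single arrays gave 0 to 47: 7, 42 and 47 without 0.5 nM replicates 1, 2 and 3, 0, 8 and 12 without 0.25 nM replicates 1, 2 and 3, and 32 without control replicate 1. In each of these, 0 genes of either list were called.

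The totals of genes or rows called below take both directions together. Of the sphingolipid list at 0.5 nM, 5 rows were higher and 12 lower with every row tested, where 27931 of 44629 rows were called. Above the median level 3 of its genes were higher, where 3787 of 7406 genes were called. At 0.25 nM 15 were higher and 4 lower without the shift, where 10046 of 14812 genes were called. Above the median level 4 were higher at this dose, where 3944 of 7406 genes were called. Between doses 8 of 21 genes above the median level were called (38.1%, against 49.2% of all such genes), and 14 of 30 (46.7%, against 62.2%) with all genes. Of the inositol list at 0.5 nM, 1 was higher with values as deposited and 5 without replicate 1. The lower ones were 5 without the shift, 5 with quantile normalization and 18 rows with every row tested. In the same order 8066, 10601, 9638 and 9032 of 14812 genes and 27931 of 44629 rows were called. At 0.25 nM 5 rows were higher and 17 lower with every row tested, where 28364 of 44629 rows were called. Without the shift 2 were lower, and above the median level 1, where 10046 of 14812 and 3944 of 7406 genes were called. Without replicate 1, 8 were lower, where 10603 genes were called. Without single arrays 2 to 6 were lower (2 without 0.25 nM replicate 3), where 8728 to 9600 genes were called. Between doses 22 of 38 rows were called with every row tested (57.9%, against 61.4% of all rows), and 12 of 20 genes (60%, against 62.2%) with 1 row per gene.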
